A study of Capsella grandiflora and Capsella rubella with 18 samples.

Results

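Among the genes measured in flower buds and leaves of Capsella, 150 combined a very high level in buds with a lower but detected level in leaf. They were chosen by their measured values from 19350 gene rows. A row qualified where at least 1 of 10 leaf libraries was above 0 and the mean over 8 bud libraries was at least 4 times the leaf mean, which 3508 rows met, and the 150 rows with the highest bud mean were taken. Levels are FPKM, fragment counts divided by transcript length and by library total. Bud level, leaf level and their ratio are therefore descriptions here, with no test, and the comparison between species is the tested result. Polyadenylated RNA had been sequenced from mixed-stage floral buds of 4 plants of the self-compatible Capsella rubella (C. rubella bud 1 to 4, in that order from Kalavrita, San Luca, Megalopoli and Samos, the last inbred in the greenhouse). The 4 C. grandiflora bud libraries came from plants of this outcrossing species, 3 grown from wild seed of Monodendri, Pili and Metsovo (bud 1 to 3), and bud 4 an F1 of plants from Corfu. The 10 leaf libraries are maturing leaves of other C. grandiflora plants, 9 grown from wild seed and 1 an F1 from Corfu. All plants grew under standard greenhouse conditions. No C. rubella leaf was analysed here.

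A flower bud holds organs that a leaf lacks, among them anthers with the tapetum and developing pollen, carpels with ovules, and petals. Such organs are known for transcripts of very high abundance made in few cell types, for example those for pollen walls and pollen tubes. C. rubella is known for a selfing syndrome, with smaller petals and less pollen than its outcrossing relative. The deposited table pairs no gene ID with a name and no annotation was used here, so the genes are given by ID or position with no function, and the tissue labels were not checked against marker genes. Positions are on the CR v1 JGI build, which is of C. rubella. Whether C. grandiflora reads were counted less fully on it was not tested.

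FPKM sums over all rows were 576725 to 625873 in C. rubella buds, 589667 to 657140 in C. grandiflora buds and 1307609 to 1858148 in leaf. Bud columns have 2 decimals and leaf columns more digits, so tissue and processing cannot be told apart, and the factor of 4 in the rule joins columns of unlike scale. Read totals were not used here and depth is unknown. Nothing in the labels says that libraries share a plant, and p-values measure the spread between these libraries.

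The bud level spanned more than an order of magnitude within the group. The 8-bud mean reached at least 1000 FPKM in 18 genes, lay between 300 and 1000 FPKM in 54 and was lower in 78, with a median of 294 FPKM over the 150 genes, against 11.0 FPKM over all rows. The 10 highest genes made up 28.0% of the summed bud level of the group. Every one of the 150 genes was above 0 in all 8 bud libraries, and the lowest single bud value was 2.68 FPKM. Together the genes held 9.57% to 11.7% of the FPKM sum in C. rubella buds, against 12.2% to 15.6% in C. grandiflora buds and 0.146% to 0.413% in leaf. The shares of the bud libraries of the 2 species did not overlap, with C. rubella bud 3 at 11.7% and C. grandiflora bud 3 at 12.2% closest to each other.

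The lower bound of the rule fell in a dense part of the ranking. The last genes inside had bud means of 150.40 and 148.40 FPKM, and the first outside 148.27 and 148.22 FPKM. The smallest bud to leaf ratios inside were 4.12 and 4.17, and the nearest rows below the ratio, at a sufficient bud level, stood at 3.97 and 3.94. In all, 656 rows had a bud mean at least as high as the lowest of the group. Of those, 468 had leaf traces but under 4 times as much in buds, and 38 were at 0 in all 10 leaf libraries.

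**Figure D1:**
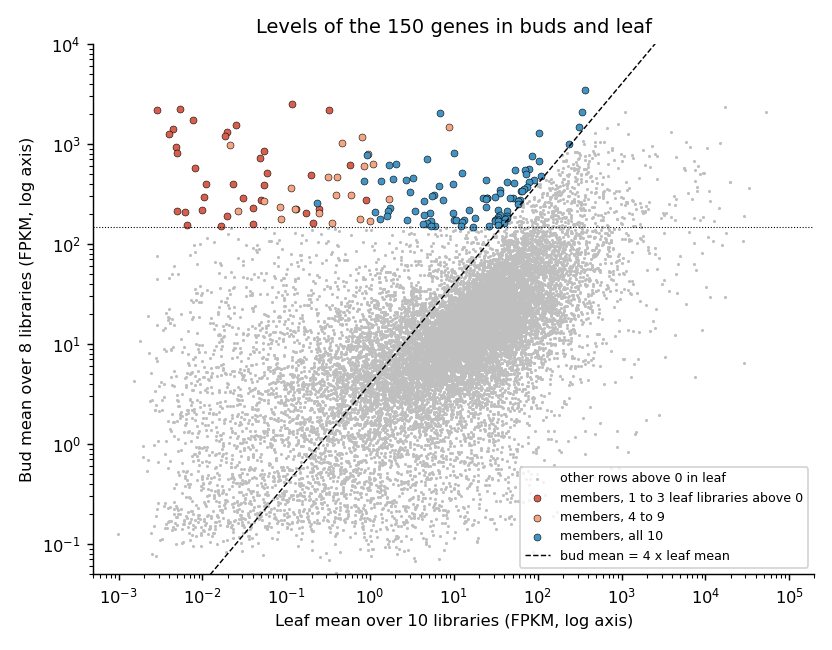
Mean FPKM over 8 bud libraries (vertical, log axis) against mean FPKM over 10 leaf libraries (horizontal, log axis). Each point is a gene row above 0 in leaf; the 150 genes are coloured by the number of leaf libraries above 0, the dashed line is a ratio of 4 and the dotted line the lowest bud mean of the group. The genes run along the top of the plot, over leaf means from 0.00289 to 362 FPKM.

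The leaf trace ranged from broad to sporadic. It was above 0 in all 10 leaf libraries for 91 genes (broad) and in 1 to 3 libraries for 37 genes (sporadic), with 22 genes between. Of the 3358 rows that met the rule at lower rank, 1359 were above 0 in all 10, 960 in 1 to 3 and 1039 in 4 to 9. Over the whole table, 15051 of 19350 rows were above 0 in all 10. Of the sporadic ones, 21 were above 0 in a single leaf library, at 0.0289 to 5.75 FPKM with a median of 0.0815 FPKM. The 37 genes reached bud means from 151 to 2486 FPKM, so sporadic traces occurred at high and at low ranks. In 31 of them no leaf library reached 1 FPKM. The 91 broad genes had leaf means between 0.230 and 362 FPKM, with a median of 24.1 FPKM. Over the whole group the bud mean was at least 10 times the leaf mean in 108 genes, at least 100 times in 76 and at least 1000 times in 46.

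Within the 91 broadly detected genes the level differed widely between leaf plants. The ratio of the highest to the lowest leaf library had a median of 9.14 and was at least 10 in 42 of 91 genes (46.2%). Over the 15051 rows of the table that were above 0 in all 10 leaf libraries, the median ratio was 3.24 and 16.0% reached 10. In the same 91 genes the ratio of the highest to the lowest of the 8 bud libraries had a median of 2.39. The bud and leaf ratios rest on unlike numbers of libraries and on columns of unlike scale, so they do not compare the tissues. The steadiest of the 91 genes varied 1.68-fold over leaf. The most variable, at rank 65 of the 150, ranged from 0.0882 to 186 FPKM in leaf, a ratio of 2106.

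The order of the leaf libraries depended on the scale. The summed leaf level of the 150 genes was 6907 FPKM in leaf 7 and 6608 FPKM in leaf 3, against 2029 to 4764 FPKM in the other 8 leaf libraries. As a share of the library's FPKM sum, leaf 3 was highest at 0.413%, with leaf 7 at 0.372%, leaf 4 at 0.360% and the other 7 between 0.146% and 0.237%. Of the 91 broad genes, 21 (23.1%) had their highest leaf value in leaf 7 and 20 (22.0%) in leaf 3. Over all rows above 0 in every leaf library, those shares were 6.60% for leaf 7 and 10.4% for leaf 3. Much of the sum came from few genes, since the 10 highest took 63.4% of it in leaf 7 and 58.4% in leaf 3. Detection differed less between libraries: 68.7% (leaf 10) to 80% (leaf 7) of the 150 genes were above 0. Single traces lay mostly in leaf 7 and leaf 9, with 6 each, and in leaf 5, with 4 of the 21. Leaf 7 also had the largest share of all rows above 0, 87.6% against 84.6% to 87.0% in the others, and the part of detection depth in these counts was not tested.

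**Figure D2:**
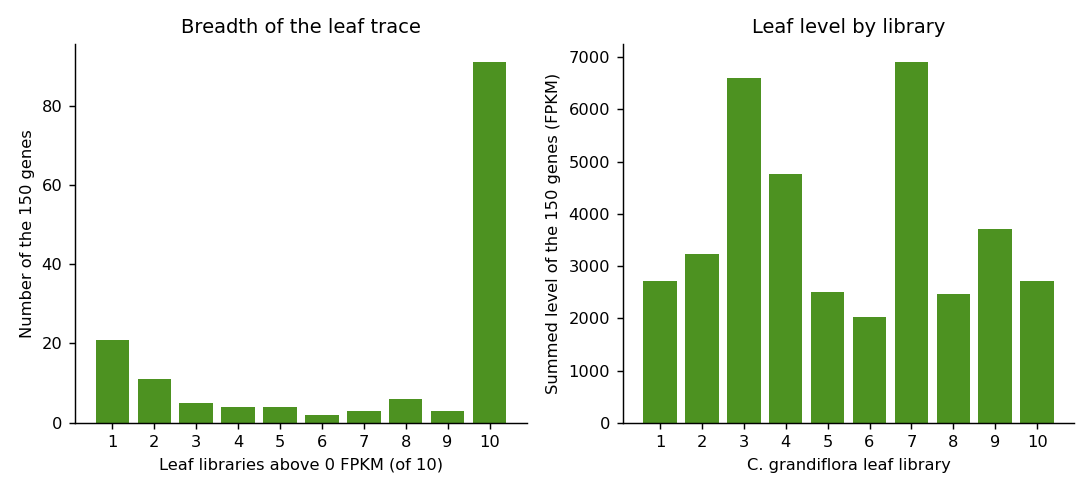
Left, the number of the 150 genes (vertical) by the number of C. grandiflora leaf libraries above 0 FPKM (horizontal). Right, the summed FPKM of the 150 genes (vertical) in each leaf library (horizontal). The left plot has its peaks at 91 genes (all 10 libraries) and 21 genes (1 library); in the right plot leaf 7 and leaf 3 stand highest, at 6907 and 6608 FPKM.

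The study's main comparison asked how bud expression differs between the selfing and the outcrossing species. Decreases in C. rubella outnumbered increases among these genes. Of the 150, all tested, 52 (34.7%) were lower in C. rubella buds at an adjusted p below 0.05, beside 12.0% of the 16923 genes tested (limma with Benjamini-Hochberg adjustment over all tested genes). In the other direction 15 (10%) were higher, beside 11.9% of all tested genes, a share near the background, and 83 passed in neither direction. The median difference over the 150 genes was -0.40 on the log2(FPKM + 1) scale (quartiles -0.98 and 0.19), and over all tested genes it was 0.01 (quartiles -0.24 and 0.26). Differences of at least 2-fold were found in 35 of the 52 decreases, which is 35 of 150 genes beside 4.15% of all tested genes. They were found in 5 of the 15 increases, which is 5 of 150 genes beside 2.40%. The C. rubella libraries all lay below the C. grandiflora ones in 48 genes (32.0%), beside 14.1% of all tested genes, and all above in 14 (9.33%), beside 14.0%. The 52 decreases ranged from -2.34 to -0.38, with a median of -1.19, and the 15 increases from 0.46 to 4.39, with a median of 0.76. In bulk tissue, fewer cells of a type and less RNA per cell cannot be told apart.

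The choice of genes and of libraries bears on these counts. A gene can enter through the species in which it is high, and 8 of the 150 reached 4 times the leaf mean only through C. rubella. They include 6 of the 15 increases. Another 3 reached that ratio only through C. grandiflora, and 2 of them were among the decreases. The bud level of the lowest member, 148.40 FPKM, was met by C. rubella alone in 12 genes and by C. grandiflora alone in 21. Of the 112 genes that met the bud level of the lowest member and the ratio in each species taken by itself, 35 (31.2%) were lower and 6 (5.36%) higher in C. rubella. With leaf columns first scaled to the mean sum of the bud columns, the rule took another 150 rows, 68 of them shared. Of that set of 150 rows, 26 (17.3%) were lower and 11 (7.33%) higher, beside 12.0% and 11.9% of all tested genes. The median difference of that set was -0.04. The number of decreases was 32 (21.3%, beside 9.44% of all tested genes) without C. rubella bud 1, 34 (22.7%, beside 8.18%) without C. rubella bud 4 and 32 (21.3%, beside 8.19%) without C. grandiflora bud 4. The number of increases was 8 (5.33%, beside 9.32% of all tested genes) without C. rubella bud 1, 9 (6.0%, beside 9.06%) without C. rubella bud 3 and 8 (5.33%, beside 8.33%) without C. grandiflora bud 2. Another refit left out bud 1 of both species, the columns in which 0.5 was taken to stand in place of 0. There 25 genes (16.7%) were lower, beside 6.51% of all tested genes, and 6 (4.0%) were higher, beside 7.13%.

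The share of decreases was larger in the first 100 ranks than in the last 50. Among ranks 1 to 50, 19 genes (38.0%) were lower and 6 higher in C. rubella, among ranks 51 to 100 20 (40.0%) and 3, and among ranks 101 to 150 13 (26.0%) and 6. The median differences of these classes of rank were -0.72, -0.56 and 0.05 on the log2(FPKM + 1) scale. Of the next 150 rows that met the ratio and had leaf traces (ranks 151 to 300), 46 (30.7%) were lower and 20 (13.3%) higher, with a median of -0.20. Over all 2817 tested rows ranked below the 150, 22.1% were lower and 11.1% higher. The difference between ranks was not tested.

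The breadth of the leaf trace went with the direction between species. Of the 37 genes with a sporadic trace, limma called 0 higher and 16 (43.2%) lower in C. rubella. Over all tested genes 11.9% were higher and 12.0% lower. At an unadjusted p below 0.05, 1 of the 37 was higher and 24 were lower. Their median difference was -0.92 on the log2(FPKM + 1) scale (quartiles -1.26 and -0.46). Of the 22 genes above 0 in 4 to 9 leaf libraries, 2 were higher and 8 (36.4%) lower, with a median of -0.52. Of the 91 broad genes, 13 (14.3%) were higher and 28 (30.8%) lower, with a median of -0.08. The same order was seen in tested rows of lower rank that met the ratio: 30.6% of those with 1 to 3 leaf libraries above 0 were lower, 24.3% of those with 4 to 9 and 17.1% of those with all 10. Rows with a bud mean at least that of the lowest member but at 0 in every leaf library, which lie outside the group, numbered 38. Of these, limma called 22 (57.9%) lower and 0 higher, or 31 lower and 0 higher at an unadjusted p below 0.05, with a median of -1.20. The share of all tested genes at the unadjusted threshold was not taken, so the unadjusted counts have no background here. Of the 468 rows that met this bud level but were under 4 times the leaf mean, 23 (4.91%) were lower and 93 (19.9%) higher. Bud levels were not matched: the median bud mean was 398 FPKM in the 37 sporadic genes, 347 FPKM in the 38 rows and 266 FPKM in the 468. All 6 increases that met the ratio only through C. rubella are among the 13 of the broad class. The 2 decreases that met it only through C. grandiflora are among its 28. Genes with a leaf mean near 0 could hardly enter that way, so the rule bears on this contrast, and by how much was not tested. The classes of breadth were drawn after the values were seen and have no test of their own.

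**Figure D3:**
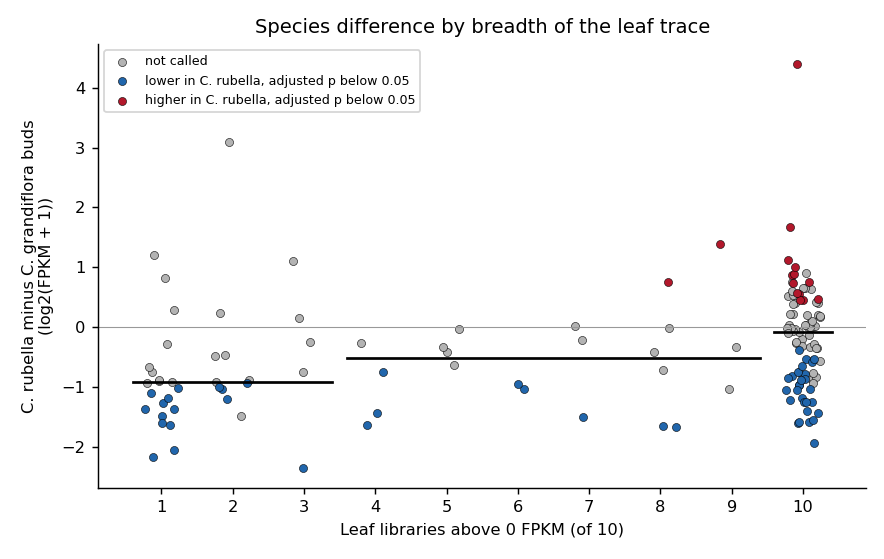
Difference between the species in buds (vertical, C. rubella minus C. grandiflora, log2(FPKM + 1)) for each of the 150 genes by the number of leaf libraries above 0 FPKM (horizontal, points spread sideways). Colours give the limma call and black bars the medians of 1 to 3, 4 to 9 and all 10 libraries, at -0.92, -0.52 and -0.08. The called increases all lie at 8 or more leaf libraries.

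Libraries within a species differed as well. The median deviation of the 150 genes from their 8-bud mean was -0.18, -0.13, -0.01 and -0.39 in C. rubella bud 1 to 4, and 0.27, 0.37, -0.02 and 0.32 in C. grandiflora bud 1 to 4 (log2 scale). C. rubella bud 3 and C. grandiflora bud 3 thus overlapped in order, while over all tested genes every library lay between -0.01 and 0.02. For the 37 sporadic genes the deviations were wider, at -0.43, -0.08, -0.18 and -0.92 in C. rubella and 0.52, 0.65, 0.08 and 0.54 in C. grandiflora. C. rubella bud 4, the inbred Samos line, was lowest, and C. grandiflora bud 3 lay nearest to the other species. C. rubella bud 4 held the lowest of the 8 values in 46 genes (30.7%, beside 16.6% of all tested genes) and C. rubella bud 2 in 36 (24.0%, beside 13.8%). The highest value lay in C. grandiflora bud 4 in 46 genes (30.7%, beside 13.9%) and in C. grandiflora bud 1 in 40 (26.7%, beside 15.6%). The median SD of the log2 level within a species was 0.303 in C. rubella and 0.376 in C. grandiflora over the 150 genes (n = 4 libraries each), and 0.172 and 0.196 over all tested genes in the same order of species. The SD was larger in C. grandiflora for 88 of the 150 genes (58.7%), beside 56.1% of all tested genes.

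**Figure D4:**
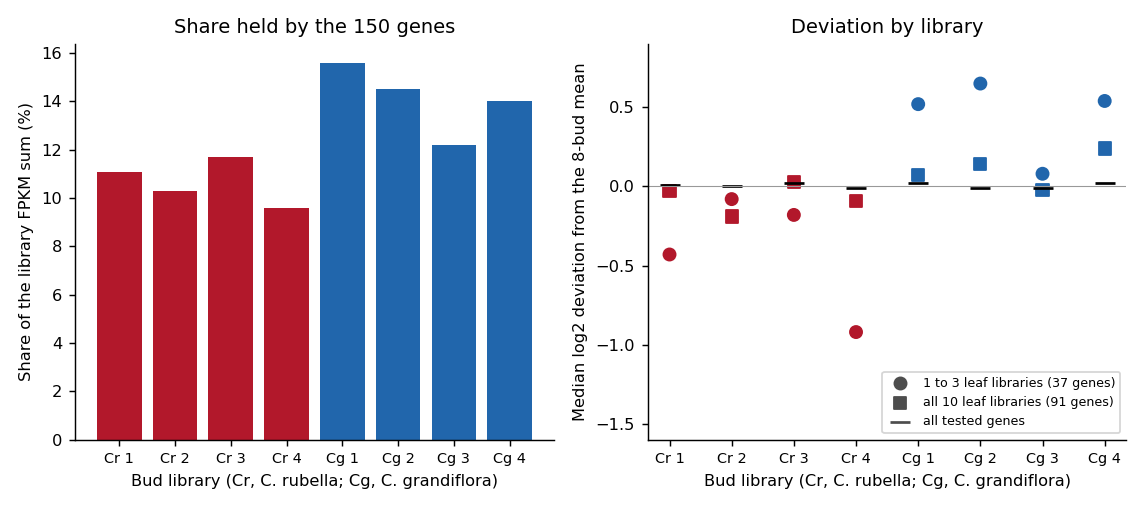
Left, the share of each bud library's FPKM sum held by the 150 genes (vertical, percent), with C. rubella in red and C. grandiflora in blue. Right, the median log2 deviation from the 8-bud mean (vertical) for the 37 genes with 1 to 3 leaf libraries above 0 (circles), the 91 genes with all 10 (squares) and all tested genes (bars). C. rubella bud 4 is lowest for the circles at -0.92, and the bars stay near 0.

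The highest bud level of all belonged to Carubv10024340m (scaffold 4, 11195918 to 11196798). It measured 5219, 2307, 3724 and 4460 FPKM in C. rubella bud 1 to 4, against 5568, 1747, 1776 and 2659 FPKM in C. grandiflora bud 1 to 4, and 39.9 to 1106 FPKM in leaf. The species overlapped, and the log2 difference was 0.53, with an SE of 0.411 (limma, adjusted p = 0.377). It was also the highest of the 150 genes in leaf by its mean, 362 FPKM. The next row on the scaffold (11197855 to 11199077), outside the group, measured 726 ± 139 FPKM in C. rubella buds and 793 ± 92.3 FPKM in C. grandiflora buds (SD, n = 4 each), with a leaf mean of 2664 FPKM.

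The second, Carubv10003652m (scaffold 6, 2386831 to 2387229), was a sporadic gene. It stood at 1680, 1208, 3206 and 1664 FPKM in C. rubella bud 1 to 4, against 3325, 3014, 2973 and 2817 FPKM in C. grandiflora bud 1 to 4. In leaf it was listed at 0 in 9 libraries and at 1.18 FPKM in leaf 9. C. rubella bud 3 lay among the C. grandiflora libraries and the other 3 below them. The log2 difference was -0.74, with an SE of 0.276 (limma, adjusted p = 0.0849), and -1.01 without C. rubella bud 3 (adjusted p = 0.0102). That refit was the only one to call the gene, which was not called in 19 of 20 alternative settings. Leaving out each bud library in turn gave differences from -1.01 to -0.54. The next row on the scaffold (2388311 to 2389692), at rank 13, was also above 0 in a single leaf library, and differed by -0.90 (limma adjusted p = 0.102).

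A common profile recurred among the highest genes. Of the 12 with the highest bud mean, 6 had their highest value in C. grandiflora bud 1 and their lowest in C. rubella bud 4, at ranks 3, 4, 5, 8, 9 and 12. All 6 were above 0 in 1 or 2 leaf libraries only. At rank 12, on the small scaffold 330 (1753 to 3408), the values were 780, 1237, 936 and 401 FPKM in C. rubella bud 1 to 4, against 3148, 1884, 1370 and 1490 FPKM in C. grandiflora bud 1 to 4. At rank 3, on scaffold 1 (643552 to 645100), they were 1736, 1818, 1564 and 987 FPKM in C. rubella, against 4327, 3215, 2018 and 2223 FPKM in C. grandiflora, and at both ranks the species did not overlap. The limma adjusted p was 0.0434 at rank 12 and 0.0524 at rank 3. Over all 150 genes 24 (16.0%) had this profile, 13 of them among the 37 sporadic genes, and 5.12% of all tested genes had it. The profile was noticed in the values and has no test.

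Among called genes, the largest increase in C. rubella was that of Carubv10003650m (scaffold 6, 678838 to 680155). Its level was 294, 267, 264 and 315 FPKM in C. rubella bud 1 to 4, against 14.7, 4.38, 55.0 and 6.18 FPKM in C. grandiflora bud 1 to 4. The C. grandiflora bud mean of 20.1 FPKM lay below the leaf mean of 26.2 FPKM, with leaf libraries from 0.698 to 76.6 FPKM. This held for 1 gene of the 150, which thus entered the group through C. rubella. The species did not overlap, and the log2 difference was 4.39, with an SE of 0.641 (limma, adjusted p = 0.00356). Both neighbouring rows were higher in C. rubella too. The row before it (675418 to 678463) measured 99.7 ± 10.1 FPKM in C. rubella and 23.1 ± 30.2 FPKM in C. grandiflora buds (SD, n = 4 each), a difference of 2.91 (limma adjusted p = 0.0266). The row after it (681486 to 683895) differed by 6.02 (limma adjusted p = 9.47e-07).

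Carubv10001228m (scaffold 6, 13715495 to 13717364) had the next largest increase among called genes. Its C. grandiflora mean of 83.3 FPKM was below the bud level of the lowest member, so it met that level through C. rubella, at 261 FPKM. It measured 302, 141, 260 and 339 FPKM in C. rubella bud 1 to 4, against 44.3, 80.7, 74.0 and 134 FPKM in C. grandiflora bud 1 to 4, and 0.988 to 22.7 FPKM in leaf. The closest libraries, C. rubella bud 2 and C. grandiflora bud 4, were 141 and 134 FPKM. The log2 difference was 1.67, with an SE of 0.366 (limma, adjusted p = 0.0142), and 1.31 without bud 1 of both species (adjusted p = 0.0673). The row before it (13712007 to 13713741) went the other way, at 10.8 ± 4.59 FPKM in C. rubella and 42.2 ± 30.8 FPKM in C. grandiflora buds (SD, n = 4 each), a difference of -1.72 (limma adjusted p = 0.0265).

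Among called genes, the largest decrease was that of Carubv10024852m (scaffold 4, 12415311 to 12415639), whose span of 329 bases was the shortest of the group. Its level was 109, 32.9, 157 and 72.3 FPKM in C. rubella bud 1 to 4, against 212, 367, 464 and 780 FPKM in C. grandiflora bud 1 to 4. Its C. rubella mean of 92.8 FPKM was below the bud level of the lowest member, which it met through C. grandiflora, at 456 FPKM. In leaf it was above 0 in 3 libraries, at 4.96, 2.12 and 1.97 FPKM. The species did not overlap, and the log2 difference was -2.34, with an SE of 0.522 (limma, adjusted p = 0.015). Carubv10022218m (scaffold 2, 3612881 to 3614764) measured 117, 55.0, 31.3 and 73.2 FPKM in C. rubella bud 1 to 4, against 118, 402, 354 and 382 FPKM in C. grandiflora bud 1 to 4. It too met the bud level of the lowest member through C. grandiflora, at 314 FPKM, with a C. rubella mean of 69.1 FPKM. It was listed at 0 in 9 leaf libraries and stood at 0.196 FPKM in leaf 9. C. rubella bud 1 and C. grandiflora bud 1 nearly touched, at 117.05 and 117.97 FPKM. The log2 difference was -2.17, with an SE of 0.487 (limma, adjusted p = 0.0154).

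**Figure D5:**
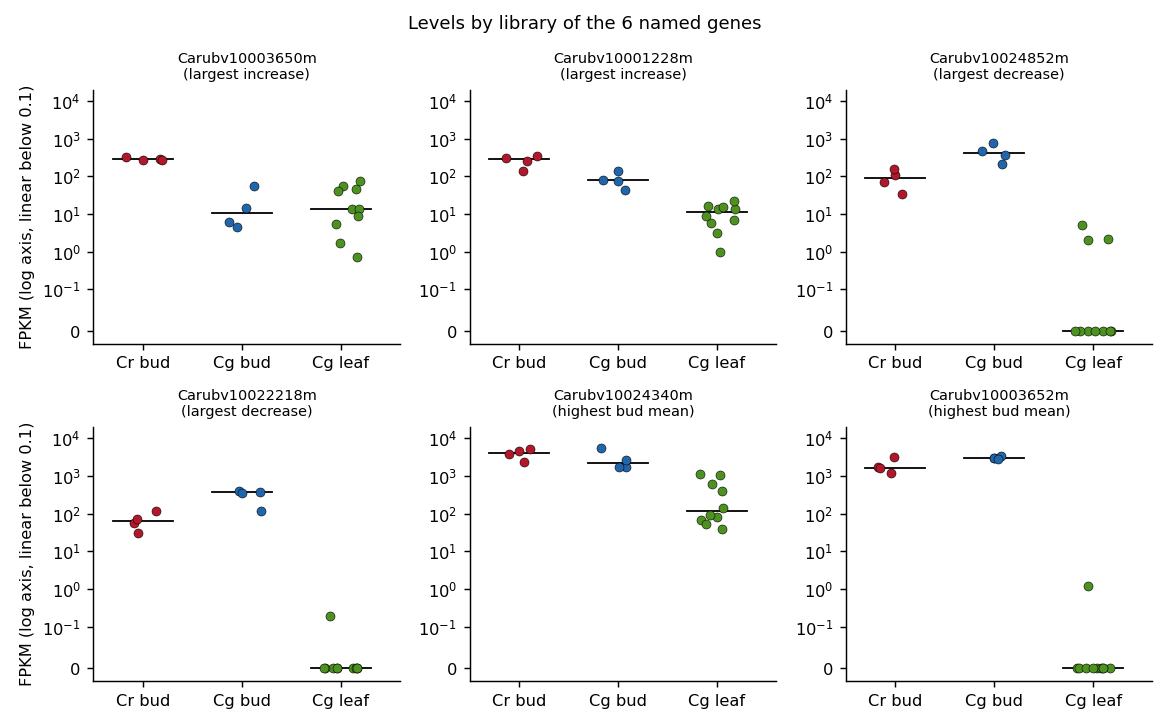
FPKM of the 6 named genes (vertical, log axis that is linear below 0.1) in each library of C. rubella bud (red, 4), C. grandiflora bud (blue, 4) and C. grandiflora leaf (green, 10). Points are libraries and black lines medians. Carubv10003650m is the one gene whose C. grandiflora bud points lie within its leaf range, and 9 of 10 leaf points are at 0 for Carubv10022218m and Carubv10003652m.

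In 5 genes a single bud library, C. grandiflora bud 3, stood at least 4-fold below every other bud library, and no other bud library stood apart in this way in any of the 150 genes. Over all tested genes, C. grandiflora bud 3 did so in 1.91%, and the other libraries in 0.0709% to 1.08%. The 5 genes lay at ranks 95 to 148 on scaffolds 3, 4, 6 and 8, and each was above 0 in 1 to 3 leaf libraries. The gene at rank 148 (scaffold 8, 6271830 to 6272616) was at 4.70 FPKM in C. grandiflora bud 3 and between 148 and 195 FPKM in the other 7 bud libraries. At rank 110 (scaffold 8, 8046283 to 8046763) the same library had 12.2 FPKM, against 179 to 268 FPKM in the others. The widest gap was at rank 95 (scaffold 4, 7774122 to 7775629), with 2.68 FPKM in C. grandiflora bud 3 and 88.7 to 590 FPKM elsewhere. There the species did not overlap, and the log2 difference was 3.09 (limma, adjusted p = 0.0605), larger than that of every called increase but Carubv10003650m. None of the 5 passed the species test, with limma adjusted p between 0.0605 and 0.834. All 5 differences were above 0. The low library that defines these genes pulls down the C. grandiflora mean, so sign and size follow in part from their choice. These 5 genes were singled out after their values were seen.

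The genes lay on all 8 main scaffolds and on scaffolds 16 and 330. Scaffold 3 had the most of them, 27 (18.0% of the group and 13.0% of all rows), and scaffold 2 had 7 (4.67% and 9.64%). The median span from start to end, introns included, was 1877 bases for the group and 2510 bases for all rows. Rows that share their coordinates with another row numbered 9 (6.0%) in the group and 12.9% over the table, and at these reads may be divided between rows.

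Some of the genes were direct neighbours in the table. There were 10 adjacent pairs, with 19 genes, and the 2 differences between species had the same sign in 6 pairs. Since 67.3% of the 150 genes had a difference below 0, pairs taken without regard to position would often agree too. On scaffold 1 the genes at ranks 62 and 27 (3045626 to 3048812 and 3049382 to 3052990) both fell, by 0.58 and 0.53 on the log2 scale (limma adjusted p = 0.0185 and 0.0209). On scaffold 3 the genes at ranks 8 and 4, 1489 bases apart, each had a single leaf library above 0. They measured 1201 and 1250 FPKM in C. rubella buds and 2270 and 3173 FPKM in C. grandiflora buds, with differences of -0.92 (limma adjusted p = 0.0761) and -1.36 (adjusted p = 0.0337).

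A run of 3 neighbours on scaffold 5 (484783 to 488683) was split in direction. The first, at rank 6, measured 3905, 2272, 2849 and 1757 FPKM in C. rubella bud 1 to 4, against 1802, 993, 1815 and 1125 FPKM in C. grandiflora bud 1 to 4. The third, at rank 30, measured 1343, 1073, 926 and 445 FPKM in C. rubella, against 384, 374, 408 and 449 FPKM in C. grandiflora. The gene between them, at rank 132, measured 79.7, 120, 80.2 and 178 FPKM in C. rubella, against 217, 95.4, 275 and 321 FPKM in C. grandiflora. Only the third passed the test, with a difference of 1.12 (SE 0.305, limma adjusted p = 0.0309), although C. rubella bud 4, at 445 FPKM, lay within the C. grandiflora range. The first differed by 0.90 (adjusted p = 0.0604) and the middle one by -0.93 (adjusted p = 0.128). All 3 were above 0 in every leaf library, with leaf means of 339, 31.3 and 104 FPKM in their order on the scaffold.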

How the data were processed

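The authors deposited gene levels as FPKM in 1 table of 19350 rows and 18 library columns, as the labels and the table's name state. Bowtie, TopHat and Cufflinks were used, per the submitters' processing notes. Not given in the sources used here: versions, parameters, row selection and scaling between libraries. Columns were matched to samples by title, and none was left over. The columns of bud 1 of each species hold 0.5 in 1137 (C. rubella) and 1023 (C. grandiflora) rows. This value was taken to stand in place of 0, and none of the 150 genes has it.

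Species were compared on log2(FPKM + 1) with limma 3.58.1 in R 4.3.3, with a mean trend, over 4 C. rubella and 4 C. grandiflora bud libraries. Genes with at least 1 FPKM in at least 4 of them were tested (16923), with Benjamini-Hochberg adjustment over all of these and a threshold of 0.05. The added 1 FPKM makes the change of a low gene look smaller. Leaf libraries entered no test.

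The members, classes and lists were chosen with earlier results of these data known, among them the excess of decreases in bud-enriched genes. Named genes are the 2 with the largest increase and the 2 with the largest decrease among called genes without overlap between species, and the 2 with the highest bud mean. Others are given by rank and position. Planned lists of products, cell type markers and sequence motifs were not used, since no annotation or sequence was at hand. Some C. grandiflora bud and leaf titles share part of their code, but no whole code recurs and the labels state no pairs, so none were paired.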

Additional observations from a re-analysis of the deposited data

Results flagged for a closer look

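A search of 27 sets of libraries for one that stood far from the others of its kind found 4. The rate of about 1 in 20 sets by chance does not apply to leaf sets that are mostly 0. There a single trace stands apart by construction, so no excess over chance is claimed. For Carubv10022218m, C. grandiflora bud 1 stood at 118 FPKM, with the nearest other C. grandiflora bud at 354 FPKM. In leaf, the same gene was listed at 0 in 9 libraries and stood at 0.196 FPKM in leaf 9. Carubv10003652m was likewise at 1.18 FPKM in leaf 9 and listed at 0 in the other 9. For Carubv10024852m, leaf 3 stood at 4.96 FPKM, with the next leaf library at 2.12 FPKM.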

How the results depend on the processing

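Without bud 1 of both species, 25 genes (16.7%) were lower and 6 (4.0%) higher in C. rubella, beside 6.51% and 7.13% of all tested genes. Leaving out each bud library in turn gave 32 to 60 lower and 8 to 16 higher genes, with a median difference of -0.55 to -0.34. Over the same fits 8.18% to 12.0% of all tested genes were lower and 7.76% to 12.1% higher. With a ratio of at least 8 the median was -0.57. With a ratio of at least 2, 31 genes (20.7%) were lower, with a median of -0.09. With the top 100 rows, 9 (9.0%) were higher and the median was -0.64, on fewer genes. With leaf columns scaled to the bud sum, 26 (17.3%) were lower and the median was -0.04. For these changes of the rule, the shares of all tested genes stayed at 12.0% lower and 11.9% higher. The median number of leaf libraries above 1 FPKM was 9, and above 0 it was 10. The causes were not tested. No result reversed. The other settings tried for these counts and medians (pseudocount, filter, scaling of buds, trend, weights, values of 0.5 set to 0, rows with shared coordinates, top 200 rows) kept counts within 1.5 times the reported ones. Under the scalings of the bud columns the median of all tested genes was lowest with upper quartile scaling, at -0.03. Depth is unknown and limits what a value of 0 in leaf means. No paired analysis was made because the labels state no pairs of libraries between the groups.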
